A study of Mus musculus with 4 samples.

Results

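The 9 genes described here form the lymphotoxin, homeostatic chemokine and homing group, measured in carcinogen-induced lung tumours with and without the transcription factor NRF2. They are Ltb and Lta (the lymphotoxin ligands), Ltbr (their receptor), Cxcl13, Ccl19 and Ccl21a (chemokines of lymphoid organs), Cxcr5 and Ccr7 (the receptors of those chemokines), and Il7r (the interleukin 7 receptor). They are 9 of 35275 gene identifiers in the deposited table. The group was chosen by the FPKM values of Ltb and Il7r, which are higher in the knockout, so the difference between genotypes is given for all 9 as a description, with no test of its own. Only 5 of them (Ltb, Ltbr, Ccl21a, Ccr7 and Il7r) reached an FPKM of 1 in at least 2 libraries, the limit for entering the comparison of 13147 genes. FPKM, a unit inferred here from the values, counts reads relative to gene length and to the depth of the library, so levels of different genes can be set side by side.

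All mice were of the Balb/c strain and had received 2 or 4 doses of 16 mg/kg vinyl carbamate, a carcinogen that causes tumours of the lung. The tumours were collected 40 to 44 weeks after the carcinogen was started, and each library was made from a pool of 3 to 4 of them. The wild-type group (genotype Nrf2 +/+) and the knockout group (Nrf2 -/-) had 2 libraries each, and which of the libraries had 2 and which had 4 doses cannot be read from the labels. The labels name neither the targeted exons of Nrf2 nor the age or sex of the animals.

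Lymphotoxin beta and lymphotoxin alpha are members of the tumour necrosis factor family. Together they form a membrane-bound complex on lymphocytes that signals through the lymphotoxin beta receptor on stromal and epithelial cells and activates the noncanonical NF-kB pathway. In lymphoid organs this signal drives stromal cells to make CXCL13, which draws CXCR5-positive B cells, and CCL19 and CCL21, which draw CCR7-positive T cells and dendritic cells. Chronically inflamed tissues and tumours can assemble tertiary lymphoid structures, lymphocyte aggregates outside lymphoid organs in which these genes are used as markers. Interleukin 7 receptor is needed for the survival of naive and memory T cells and marks innate lymphoid cells, including the lymphoid tissue inducer cells that carry lymphotoxin.

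The promoter of Ltb is shown because Ltb had the largest log2 difference of the 5 genes tested. Its sequence was read from RefSeq (GRCm38.p6) on the plus strand, at chr17:35194257-35194438, and ends just before the outermost annotated start of the gene. Capitals mark the bases GGAAAGTCCC, which read GGGACTTTCC on the other strand, a classical binding sequence of NF-kB.
Ltb promoter: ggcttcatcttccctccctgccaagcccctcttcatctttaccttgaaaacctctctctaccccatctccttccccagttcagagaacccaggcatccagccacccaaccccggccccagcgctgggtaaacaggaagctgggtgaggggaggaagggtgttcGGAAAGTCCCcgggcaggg
RefSeq promoter windows (250 bases before to 50 after the start) were matched for 7 of the 9 genes, all but Cxcr5 and Ccr7. GGGACTTTCC, searched on both strands, was found in 1 of the 7, that of Ltb, from 87 to 78 bases before the RefSeq start. These letters were taken from the Ltb window itself, as its match to the looser kappaB consensus. Their presence in Ltb was thus fixed in advance, and nothing is read from how rare they are. GGGACTTTCC occurred in 51 of all 32851 windows, or 0.155%. The looser kappaB consensus, which this sequence also meets, was likewise found in 1 of the 7, against 4.51% of all windows. TGACNNNGC, the core of the antioxidant response element to which NRF2 binds, was found in the windows of Cxcl13 and Lta, against 12.4% of all windows. TATAAA was found in the same 2 windows, against 13.6% of all. The motifs were searched on both strands, and the first and the looser one overlap fully in Ltb. These are matches of letters in the reference genome, while the mice were Balb/c, and binding was not measured.

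The labels were checked first. Nfe2l2, the gene that encodes NRF2, stood at 96.3 and 87.9 FPKM in wild type 1 and 2 and at 3.66 and 2.96 FPKM in knockout 1 and 2. Its log2 fold change was -4.44 ± 0.13 (SE; adjusted p = 0.000378 with limma). Sftpc (surfactant protein C) and Nkx2-1 (a lung lineage factor) were at 75159 to 90474 FPKM and 198 to 238 FPKM over the 4 libraries. Depths implied by the values were 16.89 to 21.66 M reads, with both knockout libraries below both wild-type ones.

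Ltb lies on chromosome 17 (35194439 to 35196320, plus strand, GRCm38, the assembly of mm10). Its level was 5.29 and 5.36 FPKM in wild type 1 and 2 and 13.0 and 14.8 FPKM in knockout 1 and 2. Both knockout libraries lay above both wild-type libraries, and the wild-type pair was almost equal. These levels rest on 133 and 132 reads in wild type and 272 and 291 in knockout. The means were 5.32 ± 0.0487 and 13.9 ± 1.28 FPKM (SD, n = 2 each), which made Ltb 2.62 times as high in the knockout. Its difference on the scale of log2(FPKM + 1) was 1.24 ± 0.12 (SE). In bulk tissue such as this, more cells of a type and more RNA per cell cannot be told apart.

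Of the 9 genes, 1 (Ltb) was among those called at an adjusted p under 0.05 by limma, as were 0.114% of all tested genes, with 0.0761% higher and 0.038% lower in the knockout. Limma-voom on recovered reads called 0.0609% of the same genes, and not Ltb (adjusted p = 0.0833). The call uses the same values that chose the group, so it is no separate evidence. Of 13 other settings, 4 kept it (the closing section lists them), and leaving out wild type 1, wild type 2 or knockout 2 ended it. The log2 fold change itself stayed between 1.15 and 1.32 with any 1 library left out.

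Lta, the other lymphotoxin subunit, lies 3' to Ltb in the same cluster (chromosome 17, 35203165 to 35205351, minus strand). Its level was 0.10 and 0.409 FPKM in wild type 1 and 2 and 0.603 and 0.342 FPKM in knockout 1 and 2. The groups overlapped, since wild type 2 lay above knockout 2. Reads numbered 3 and 12 in wild type and 15 and 8 in knockout. The exact 95% counting interval was 0.0207 to 0.293 FPKM in wild type 1, 0.211 to 0.714 in wild type 2, 0.338 to 0.995 in knockout 1 and 0.148 to 0.675 in knockout 2. Only those of wild type 1 and knockout 1 did not overlap between the genotypes. Such intervals cover counting error only, because the reads carry no molecular identifiers. Per length, Ltb stood 52.8, 13.1, 21.6 and 43.3 times above Lta in wild type 1, wild type 2, knockout 1 and knockout 2.

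Ltbr, the receptor, lies on chromosome 6 (125306571 to 125313885, minus strand). It was the most abundant of the 9 genes in every library, at 99.98 and 113 FPKM in wild type 1 and 2 and 110.0 and 98.3 FPKM in knockout 1 and 2. The libraries of the groups interleaved, and the difference was -0.03 ± 0.12 (SE) on the log2 scale. It was positive without wild type 2 (0.06) or knockout 2 (0.05), so no direction is given. It rests on at least 1535 reads per library, and its level per length was 18.9 and 21.2 times that of Ltb in wild type 1 and 2 and 8.44 and 6.63 times in knockout 1 and 2.

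**Figure D1:**
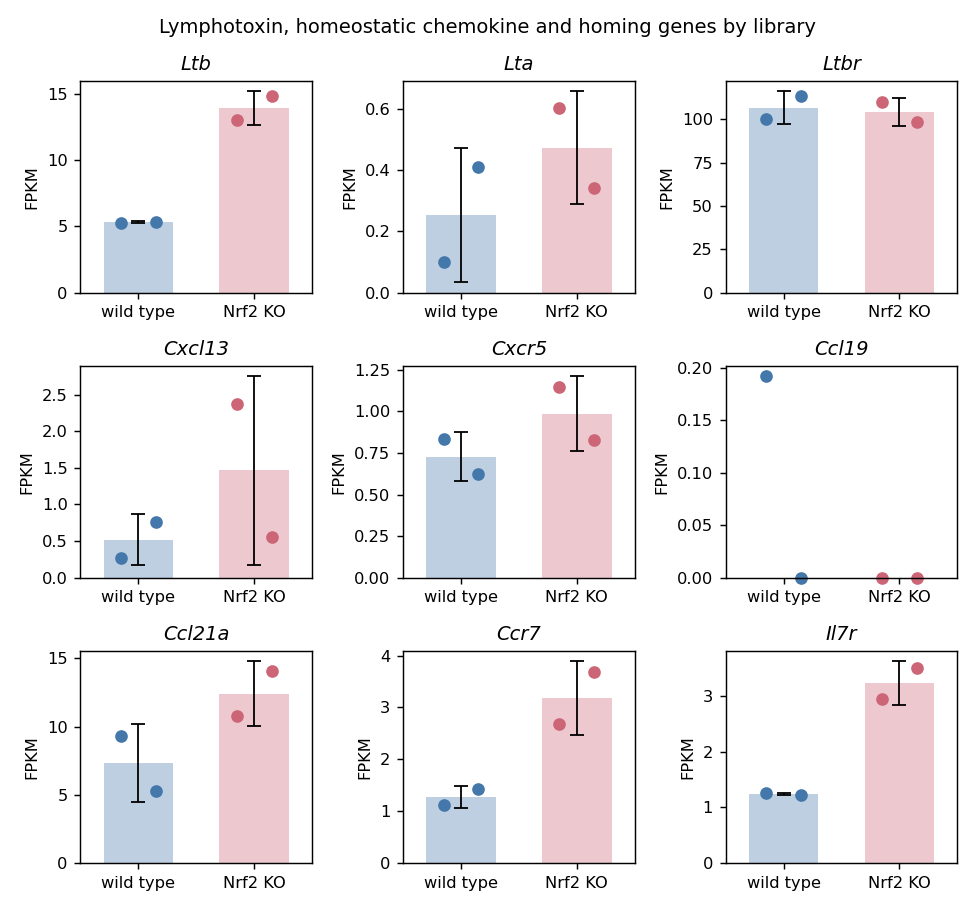
Level of each of the 9 genes in FPKM (vertical axes, each from 0) in wild-type and knockout tumours. Points are libraries, bars are means and whiskers are SD over 2 libraries, except for Ccl19, which shows points only; both knockout points lie above both wild-type points for Ltb, Ccl21a, Ccr7 and Il7r.

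Among the chemokines, Ccl21a had the highest level. The gene lies on chromosome 4 (42772860 to 42773993, minus strand) and stood at 9.34 and 5.31 FPKM in wild type 1 and 2 and at 10.7 and 14.1 FPKM in knockout 1 and 2. Knockout 1 was only a little above wild type 1, and wild type 2 was the lowest of the 4. The means were 7.32 ± 2.85 and 12.4 ± 2.36 FPKM (SD, n = 2 each), a ratio of 1.69 and a log2 difference of 0.72 ± 0.25 (SE). It was 0.36 without wild type 2 and 1.08 without wild type 1, so a single wild-type library moved it by more than the error.

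The mouse genome holds several copies of Ccl21. Ccl21a was compared with the annotated copies Ccl21b, Gm21541, Gm13304 and Gm10591 because reads that fit several of them cannot be assigned. In the 402 coding bases Ccl21a differed from each of the 4 copies at the same 2 positions, T84A and C194T, counted from the first base of the start codon, with the base of Ccl21a given first. The stretch from coding base 76 to 210 is printed, from the GENCODE transcripts of GRCm38, with the differing bases in capitals.
Ccl21a: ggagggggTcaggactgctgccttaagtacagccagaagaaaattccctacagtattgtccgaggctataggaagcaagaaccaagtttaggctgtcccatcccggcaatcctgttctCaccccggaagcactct
Ccl21b: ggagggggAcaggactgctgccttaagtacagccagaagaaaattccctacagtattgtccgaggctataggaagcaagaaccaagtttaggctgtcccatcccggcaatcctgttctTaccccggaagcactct
Ccl21a was given 176, 98, 168 and 207 reads in wild type 1, wild type 2, knockout 1 and knockout 2. Gm21541 was given 1 read, in wild type 1, and the other 3 copies were listed at 0 in every library. How the authors treated reads that fit more than 1 copy is not given in the sources used here, so the level of Ccl21a stands for those reads that were assigned to it.

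Ccl19, the other ligand of CCR7 (chromosome 4, 42754525 to 42756577, minus strand), was close to absent. It had 3 reads in wild type 1, or 0.192 FPKM, and was listed at 0 in the other 3 libraries. A count of 0 allows up to 3 reads, which is 0.196 FPKM in wild type 2, 0.231 in knockout 1 and 0.246 in knockout 2. Each library is therefore at or under that limit, and no fold is given. Both Ccl19 and Ccl21a lie within the span of 4930578G10Rik on the opposite strand, which was at 0 to 0.185 FPKM.

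Cxcl13, the ligand of CXCR5 (chromosome 5, 95956951 to 95961068, plus strand), varied widely between libraries of the same genotype, by 2.77 times in wild type and 4.27 times in knockout. It was at 0.276 and 0.764 FPKM in wild type 1 and 2 and at 2.37 and 0.556 FPKM in knockout 1 and 2. Knockout 1 stood apart from the other 3 libraries with 50 reads, against 7, 19 and 11 in wild type 1, wild type 2 and knockout 2, and knockout 2 lay below wild type 2. The mean in the knockout, 1.46 ± 1.29 FPKM (SD, n = 2), thus rests on 1 library, whose counting interval (1.76 to 3.13 FPKM) did not reach that of knockout 2 (0.277 to 0.994 FPKM).

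Cxcr5, the receptor that B cells and follicular helper T cells use to follow CXCL13 (chromosome 9, 44511787 to 44561877, minus strand), was at 0.832 and 0.624 FPKM in wild type 1 and 2 and at 1.15 and 0.827 FPKM in knockout 1 and 2. Knockout 2 was just under wild type 1, so the groups overlapped. With 36 to 56 reads per library, the counting interval of knockout 1 (0.865 to 1.49 FPKM) overlapped that of wild type 1 (0.616 to 1.10 FPKM) and lay just above that of wild type 2 (0.437 to 0.864 FPKM). The annotated span of Cxcr5 shares 110 bases with Bcl9l, a gene on the opposite strand at 22.7 to 26.3 FPKM, and without strand their reads cannot be told apart there.

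Ccr7, the receptor of CCL19 and CCL21 on naive T cells and mature dendritic cells (chromosome 11, 99144196 to 99155077, minus strand), was at 1.12 and 1.43 FPKM in wild type 1 and 2. Knockout 1 and 2 were at 2.67 and 3.68 FPKM, both above both wild-type libraries. The means were 1.27 ± 0.219 and 3.18 ± 0.714 FPKM (SD, n = 2 each), a ratio of 2.49. The log2 difference of 0.87 ± 0.18 (SE) understates that ratio, because a pseudocount of 1 weighs on a gene at this level. It rests on 48 and 60 reads in wild type and 95 and 123 in knockout.

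Il7r (chromosome 15, 9505788 to 9530176, minus strand) was at 1.25 and 1.22 FPKM in wild type 1 and 2 and at 2.95 and 3.51 FPKM in knockout 1 and 2. As with Ltb, the wild-type pair was nearly equal and both knockout libraries were higher. The ratio of the means was 2.61 and the log2 difference 0.92 ± 0.15 (SE), from 87 and 83 reads in wild type and 170 and 190 in knockout. With 1 library left out it ran from 0.82 to 1.01. Ltb and Il7r, which chose the group, were thus alike in their ratio, although their log2 differences are not because of the pseudocount.

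Both knockout libraries lay above both wild-type libraries for 4 of the 5 genes tested (Ltb, Ccl21a, Ccr7 and Il7r), as they did for 22.7% of all tested genes. Since the group was assembled on this contrast, nothing is read from that count. Of the 4 genes under the limit, 0 were separated in this way.

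The order of the levels was similar in both genotypes. Ltbr was first in all 4 libraries. Ltb and Ccl21a followed, and did not differ beyond their spread: Ccl21a was above Ltb in wild type 1 and below it in the other 3 libraries. Il7r and Ccr7 came next and traded places within each genotype. Cxcr5 and Cxcl13 were likewise not separated, Lta was eighth in 3 libraries and ninth in wild type 1, and Ccl19 was the lowest in the 3 libraries in which it was listed at 0.

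The genes around Ltb were then examined, since Ltb, Tnf and Lta sit side by side in the class III region of the major histocompatibility complex. The window of 50 kb on each side was chosen after the data were seen and holds 13 genes of the table, Ltb and Lta included. Tnf, which encodes tumour necrosis factor, was at 0.595 and 0.790 FPKM in wild type 1 and 2 and at 1.90 and 0.802 FPKM in knockout 1 and 2, under the limit for testing. Knockout 1 was high and knockout 2 barely above wild type 2, a pattern unlike that of Ltb. Of the 7 neighbours tested, 0 were called by limma. Aif1, a gene of macrophages and microglia, had a log2 fold change of 0.68 ± 0.12 (SE; adjusted p = 0.12) and Lst1, a leukocyte gene, of 0.35 ± 0.14 (adjusted p = 0.317). Both had an unadjusted p under 0.05 (0.00135 and 0.0458). The broadly expressed Bag6, Prrc2a and Ddx39b were at -0.22, -0.24 and -0.02, and the median of the 7 was 0.13.

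**Figure D2:**
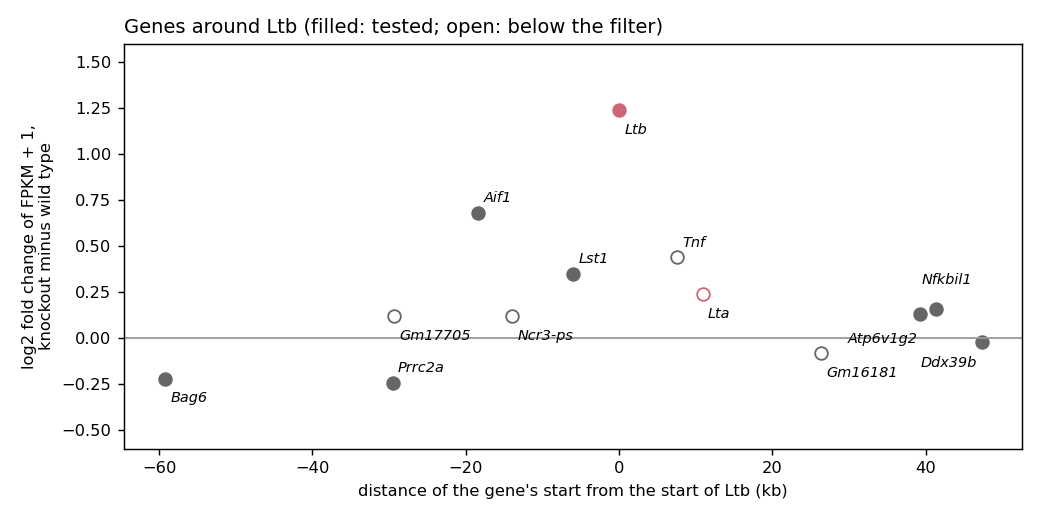
Difference in log2(FPKM + 1) between knockout and wild type (vertical axis) for the 13 genes within 50 kb of Ltb, against the distance of each gene's start from the start of Ltb in kb. Filled points are tested genes and open points lie below the limit of 1 FPKM in 2 libraries; Ltb at 1.24 stands above Aif1 at 0.68 and the others.

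Other genes of the pathway were taken from 9 lists written with earlier results of these data known, with the 9 genes themselves left out. Of 96 genes listed, 65 were tested. Limma called 0 of the 65, and limma-voom on recovered reads also called 0. At an unadjusted p under 0.05, 20 were higher and 2 lower in the knockout, against 8.36% and 7.01% of all tested genes. Both knockout libraries lay above both wild-type libraries for 34 of the 65 and below them for 6, against 22.7% and 25.4% of all. The median log2 fold change of the 65 was 0.21 (0.13 to 0.29 with single libraries left out), and that of all tested genes was -0.004.

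Downstream of the receptor, the list of lymphotoxin and noncanonical NF-kB signalling had 12 tested genes, with a median of 0.18 and with 3 of 12 at an unadjusted p under 0.05, all higher. Relb, which encodes the NF-kB subunit that this pathway releases, stood at 10.7 and 11.4 FPKM in wild type 1 and 2 and at 13.7 and 16.3 FPKM in knockout 1 and 2. Its log2 fold change was 0.40 ± 0.13 (SE; adjusted p = 0.249). Nfkb2, the precursor of its partner p52, was at 0.25 ± 0.10 (adjusted p = 0.343). Map3k14, which encodes the kinase NIK at the head of the pathway, was at 0.17 ± 0.14 (adjusted p = 0.596). Tnfrsf14, a receptor of the lymphotoxin family, was at 0.31 ± 0.12 (adjusted p = 0.313). None of these passed limma's threshold.

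Of other lymphoid members of the tumour necrosis factor family, 5 were tested, with a median log2 fold change of 0.36 (0.26 without wild type 2, 0.59 without knockout 1), and 3 of the 5 had an unadjusted p under 0.05. Cd40, a receptor of B cells and dendritic cells, was at 0.65 ± 0.16 (SE; adjusted p = 0.173). Tnfsf13b, the B cell survival factor BAFF, was at 3.43 and 1.47 FPKM in wild type 1 and 2 and at 3.59 and 8.59 FPKM in knockout 1 and 2. Its knockout libraries differed from each other more than wild type 1 did from knockout 1 (adjusted p = 0.322).

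Other homeostatic chemokines and their receptors had a median of 0.52 over 7 tested genes, 5 of which had an unadjusted p under 0.05, all higher. The median ran from 0.32 without knockout 2 to 0.57 without knockout 1. Cxcl12, the stromal chemokine that holds lymphocytes through CXCR4, was at 14.7 and 10.1 FPKM in wild type 1 and 2 and at 23.6 and 31.4 FPKM in knockout 1 and 2. Its log2 fold change was 1.10 ± 0.21 (SE; adjusted p = 0.134). Its receptor Cxcr4 was at 0.53 ± 0.17 (adjusted p = 0.249) and Cxcl16, a ligand on macrophages and epithelium, at 0.51 ± 0.13 (adjusted p = 0.177). Ccr6, the receptor of CCL20 on B cells and Th17 cells, had 15, 23, 23 and 37 reads in wild type 1, wild type 2, knockout 1 and knockout 2 and was not tested.

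The interleukin 7 axis had a median of 0.10 over 7 tested genes (0.01 without wild type 2, 0.2 without knockout 1), with 2 at an unadjusted p under 0.05. Il7, the ligand, was at 2.01 and 1.69 FPKM in wild type 1 and 2 and at 2.25 and 1.72 FPKM in knockout 1 and 2, with overlapping groups. Il2rg, the common gamma chain that pairs with the interleukin 7 receptor, was at 4.53 and 3.99 FPKM in wild type 1 and 2 and at 7.81 and 7.34 FPKM in knockout 1 and 2. Its log2 fold change was 0.71 ± 0.13 (SE; adjusted p = 0.125). Jak3, the kinase bound to that chain, was at 0.14 ± 0.12 (adjusted p = 0.601). Il2rg was higher in both knockout libraries, as were 22.7% of all tested genes. Because Il7r chose the group, nothing is read from its contrast with the ligand.

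Genes of high endothelial venules and homing adhesion had a median of 0.33 over 10 tested genes, which was 0.06 without wild type 2 and 0.54 without wild type 1. With the limit raised to 5 FPKM the median was -0.08. Of the 10, 3 were higher and 1 lower at an unadjusted p under 0.05. Vcam1, an adhesion molecule of activated endothelium and stroma, was at 0.51 ± 0.14 (SE; adjusted p = 0.2) and Icam1 at -0.10 ± 0.11 (adjusted p = 0.687). Glycam1, a mucin-like glycoprotein of high endothelial venules, had 0 and 2 reads in wild type 1 and 2 and 11 and 7 in knockout 1 and 2. Madcam1, the mucosal addressin, had 1 read in all, in knockout 2.

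The list for stromal organizers and follicular dendritic cells had a median of 0.10 over 7 tested genes (-0.07 without knockout 2, 0.46 without wild type 1), with 1 at an unadjusted p under 0.05. Pdpn, a marker of lymphoid stroma that alveolar type 1 and lymphatic cells also make, was at -0.07 ± 0.13 (SE; adjusted p = 0.831). Cr2, the complement receptor of follicular dendritic cells and B cells, had 5, 13, 13 and 15 reads and was not tested. Genes of lymphoid tissue inducer cells had a median of -0.03 over 6 tested genes (-0.09 without wild type 2), and 1 of the 6 had an unadjusted p under 0.05. Their cytokines Il22 and Il17a were at 4 to 11 reads and 0 to 4 reads per library.

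Genes of lymphocyte egress and follicle positioning had a median of 0.17 over 8 tested genes, with 2 higher and 1 lower at an unadjusted p under 0.05. Of these, S1pr4 and Gpr183 entered only through the knockout. With the limit raised to 5 FPKM the median was -0.01. S1pr1, the egress receptor, was at 0.57 ± 0.24 (SE; adjusted p = 0.342), and Gpr183, which guides B cells along oxysterol gradients, at 0.28 ± 0.17 (adjusted p = 0.483). Ch25h makes the oxysterol precursor for that receptor, and had the lowest p of the 65 genes (named after its values were seen). It was at 1.74 and 2.20 FPKM in wild type 1 and 2 and at 6.59 and 5.44 FPKM in knockout 1 and 2, a log2 fold change of 1.24 ± 0.16 (adjusted p = 0.0799). Germinal centre and follicular helper genes had 3 tested members, with a median of 0.21 (0.05 without wild type 2, 0.37 without wild type 1) and 0 at an unadjusted p under 0.05. Bcl6, the transcription factor of both cell types, was at 0.10 ± 0.13 (adjusted p = 0.761) and Icos, a costimulator of follicular helper cells, at 0.53 ± 0.23 (adjusted p = 0.345). Icos and Cxcr3, whose value is the median, entered only through the knockout.

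**Figure D3:**
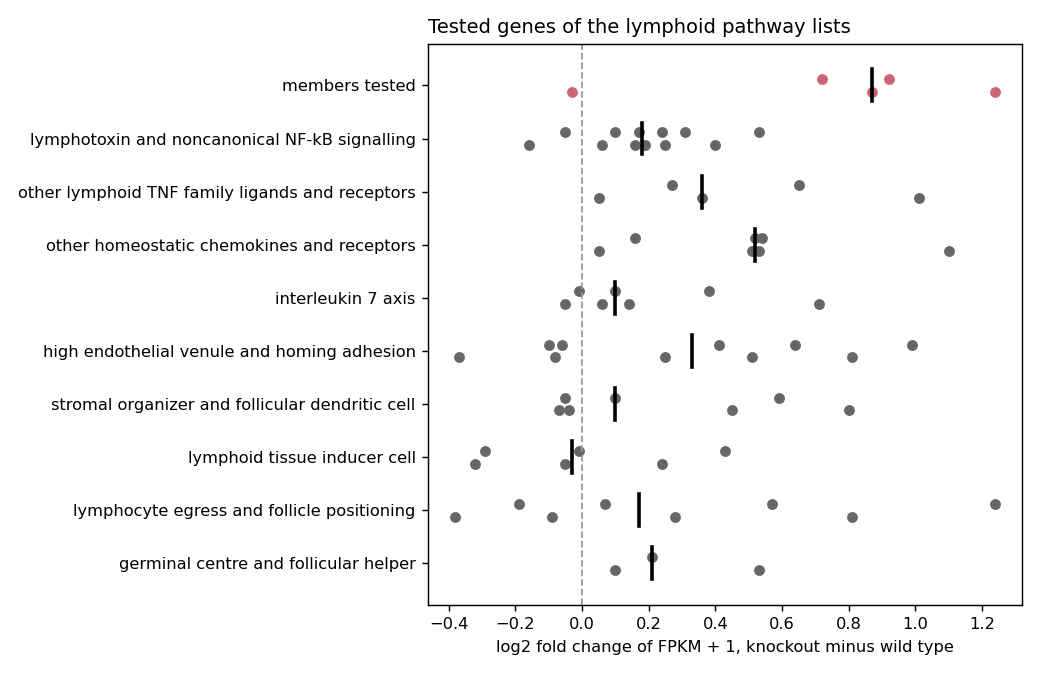
Log2 fold change between knockout and wild type (horizontal axis) of each tested gene in the 9 pathway lists and of the 5 tested genes of the lymphotoxin group, shown on top for scale. Points are genes, black bars are medians and the dashed line is the median of all tested genes; list medians run from -0.03 for lymphoid tissue inducer genes to 0.52 for other homeostatic chemokines.

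Markers of the cells that carry these genes were measured in the same libraries. The summed level of T cell markers was 30.5 and 29.8 FPKM in the wild-type libraries, against 63.1 and 69.1 FPKM in those of the knockout. All 10 tested T cell markers lay higher in both knockout libraries (median 0.87), as did 22.7% of all tested genes. Limma and limma-voom called 0 of them, and 10 were higher at an unadjusted p under 0.05, against 8.36% of all tested genes. Cd3e, a chain of the T cell receptor complex, was at 0.58 ± 0.14 (SE; adjusted p = 0.178) and Trac, the receptor's alpha constant segment, at 1.32 ± 0.32 (adjusted p = 0.182). Ltb amounted to 17.4% and 18.0% of the summed T cell markers in wild type 1 and 2 and to 20.6% and 21.5% in knockout 1 and 2. Il7r amounted to 4.11% and 4.09% against 4.67% and 5.07%, and Ccr7 to 3.68% and 4.80% against 4.23% and 5.33%. For Ltb and Il7r these shares were higher in both knockout libraries, and for Ccr7 they overlapped. Ltb and Il7r chose the group because they are higher in the knockout. Their shares use the same values, so nothing is read from them or from the contrast with Ccr7. The part of T cell markers in the result was not tested.

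B cell markers had a median of 0.93 over 6 tested genes. Cd79a, a signalling chain of the B cell receptor, was at 1.55 and 1.68 FPKM in wild type 1 and 2 and at 5.04 and 3.33 FPKM in knockout 1 and 2 (adjusted p = 0.14). Ms4a1, which encodes CD20, had 5 and 4 reads in wild type and 21 and 13 in knockout. Cxcr5 and Cxcl13, the pair that guides B cells, were both highest in knockout 1, the library with the highest Cd79a. Between knockout 2 and wild type 2 the order differed: Cxcl13 was lower in knockout 2 (0.556 against 0.764 FPKM) and Cd79a higher. A link between these genes was not tested. Per length, Cxcr5 was 0.536 and 0.371 of Cd79a in wild type 1 and 2 and 0.227 and 0.248 in knockout 1 and 2.

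Mature dendritic cell markers, which go with Ccr7, had a summed level of 345 and 343 FPKM in the wild-type libraries, against 393 FPKM in knockout 1 and 669 FPKM in knockout 2. Much of the sum in knockout 2 is Il4i1 (named after its values were seen), at 81.3, 85.5, 110 and 341 FPKM in wild type 1, wild type 2, knockout 1 and knockout 2. Much of it in the other libraries is Socs2, at 174, 184, 170 and 144 FPKM in the same order. The sum therefore follows mainly these genes and does not describe the list as a class. The median log2 fold change was 0.74 over 8 tested genes, and 0.34 without knockout 2. Fscn1, an actin bundler of mature dendritic cells, was at 0.41 ± 0.27 (SE, adjusted p = 0.518), and Relb counts among these markers as well. Ccl17, Ccl22, Il4i1 and Cd83 were at 2.31, 1.87, 1.20 and 1.07, and Socs2 and Cacnb3 at -0.19 and 0.04. Limma called 0 of the 8. Lymphatic endothelium is a source of CCL21, and its markers summed to 88.7, 85.4, 74.7 and 91.1 FPKM in wild type 1, wild type 2, knockout 1 and knockout 2. Lyve1 was at -0.01 ± 0.29 (adjusted p = 0.992), and Prox1, the lineage's defining factor, at 0.330 and 0.318 FPKM in wild type and 0.154 and 0.153 FPKM in knockout. Most of the sum is Pdpn, at 76.2, 79.5, 67.4 and 81.3 FPKM in the same order, which other lung cells make too. Lyve1, at 6.36, 3.11, 3.91 and 5.09 FPKM, interleaved between the genotypes, and the part of these cells in the values of Ccl21a was not tested.

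Among the remaining marker lists, medians were 1.56 for neutrophils (6 tested, 3 called as higher by limma, against 0.0761% of all tested genes), 1.42 for red blood cells, 0.86 for natural killer cells, 0.61 for naive T cells and 0.60 for plasma cells. Fibroblasts stood at 0.59, blood endothelium at 0.46 and conventional dendritic cells at 0.30. Macrophages stood at 0.08, innate lymphoid cells at 0.07 and alveolar type 2 or tumour epithelium at -0.09. Leaving out single libraries moved the medians of blood endothelium (0.00 to 0.93), fibroblasts (0.24 to 0.87), naive T cells (0.35 to 0.86), plasma cells (0.14 to 0.66), macrophages (0.02 to 0.21) and innate lymphoid cells (-0.09 to 0.27), in each case lowest without wild type 2 or knockout 2. The epithelial median ran from -0.16 to -0.12. Red blood cell markers had a summed level of 247 FPKM in wild type 1, 490 in wild type 2, 1194 in knockout 1 and 1094 in knockout 2. Neutrophil markers had 26.7, 28.6, 99.5 and 114 FPKM in the same order. Both sums were thus higher in the knockout libraries, as Ltb, Ccr7 and Il7r were, and their part in the result was not tested.

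**Figure D4:**
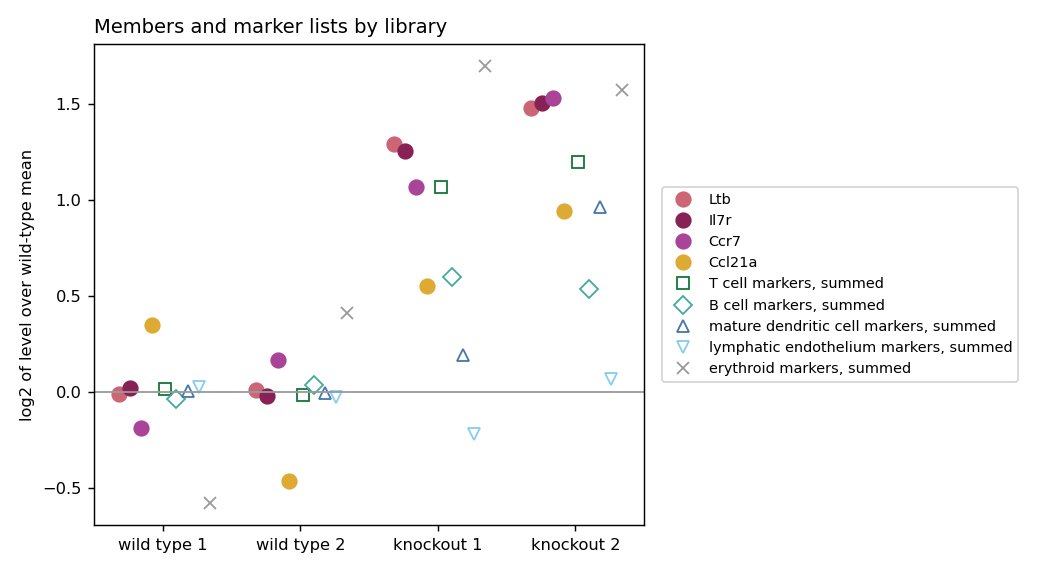
Level of Ltb, Il7r, Ccr7 and Ccl21a (filled points) and summed FPKM of 5 marker lists (open symbols and crosses) in each library, as log2 of the ratio to the mean of the wild-type libraries. In both knockout libraries the red blood cell markers lie highest, followed by Ltb, Il7r and Ccr7 and the T cell markers, and lymphatic endothelium markers lie below the wild-type mean in knockout 1 and just above it in knockout 2.

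For Ltb and Il7r the genes with the most similar pattern were sought over the 4 libraries, as the smallest Euclidean distance between log2(FPKM + 1) values centred on each gene's mean. Closest to Ltb were Col6a1, a collagen VI chain (distance 0.081), Mfap5, a microfibril protein (0.115), Trbj2-6, a T cell receptor joining segment listed at 0 in both wild-type libraries (0.136), Gm2830 (0.175) and Il1r2, the decoy receptor of interleukin 1 (0.178). Closest to Il7r were Gpm6a, a membrane glycoprotein (0.037), Slfn1, a schlafen gene (0.076), Psrc1, a spindle protein (0.11), Wfdc1, a WAP domain protein (0.114), and S1pr4, a sphingosine phosphate receptor of lymphocytes (0.116). Il7r ranked 30 in distance from Ltb (0.323), and Ccr7 ranked 26 in distance from Il7r (0.196). With 4 libraries many genes share such a pattern, and the distance depends on the level through the pseudocount.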

How the data were processed

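RNA of pooled lung tumours was sequenced in 2 wild-type and 2 knockout libraries, grouped by title. The deposited values, made by the authors, carry no stated unit and were taken as FPKM from their form (whole reads scaled by library and by gene). The submitters' processing notes list mm10, TopHat2 and DESeq2, with no versions or roles. The sources used here do not say how reads were counted, on which annotation, or whether strand was used. Of 35275 identifiers, 34490 matched a GRCm38 symbol. Whole reads were recovered for 21600 of 21601 genes above 0 (within 0.0002 of a whole number), at an annotated length for 5488 genes. For the rest the smallest length that gave whole reads was taken, so their counts are lower bounds; Ltb, Ltbr, Cxcl13, Cxcr5, Ccl19 and Il7r are among these, and counting intervals for them may be too wide.

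Limma 3.58.1 (R 4.3.3) compared the genotypes on log2(FPKM + 1) with its intensity trend. It covered 13147 genes that reached 1 FPKM in 2 libraries, with Benjamini-Hochberg adjustment and a threshold of 0.05; the code was tested on simulated data. Residual degrees of freedom were 2 and prior ones 4.12. An exact two-sided permutation test of 2 against 2 cannot give a p below 0.333. The p-values measure only the spread between these 4 samples.

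The 9 genes, the lists and the tests were chosen with earlier results of these data known. Named are the 9 genes, Nfe2l2, any pathway gene called (0 were), a set of list genes fixed by name, and the 5 genes nearest in pattern to Ltb and to Il7r; Ccl21c, also in that set, is not analysed here, and some other genes of the set are not reported here. Sftpc, Nkx2-1, the neighbours of Ltb, the other Ccl21 copies, Ch25h, Itgb7, Il33 and Il4i1 were added after values were seen. So were Socs2, Cacnb3, Ccl17, Ccl22, Cd83, Ccl27a, S1pr4, Cxcr3, Fcmr, Klrd1, Hbb-bt and Satb1 as list genes. Cd3d, Cd4, Chst2, Cxcr2, Clec9a and Gata3 were likewise named as list genes only after values were seen. Alternatives were quantile normalization, no trend, no filter, a filter at 5 FPKM, pseudocounts of 0.1 and 10, a replicate block, leaving out each library, a threshold of 0.1, limma-voom on recovered reads and, chosen after seeing the data, a filter at 10 recovered reads.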

Additional observations from a re-analysis of the deposited data

How the results depend on the processing

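Limma called 15 genes in the fit reported, and 11 with quantile normalization, without the trend or with a pseudocount of 10. The count was 1 with no filter on low values, 8 with limma-voom on recovered reads, 65 at an adjusted p under 0.1, and 10 to 221 with single libraries left out (221 without knockout 1, 49 without knockout 2). Of the 65 pathway genes 0 were called; it was 1 at an adjusted p under 0.1 and 0 to 3 with single libraries left out (Cxcl12, Itgb7 and Il33 without knockout 1). The labels do not say that replicate numbers pair the samples, and deviations of same-numbered libraries from their group means correlated at -0.306 across genes; with the replicate number as a block, limma called 69 genes and 1 pathway gene, Ch25h. Ltb had an adjusted p of 0.0455 and was called in 4 of 13 other settings: a filter at 5 FPKM (0.0295), a pseudocount of 0.1 (0.0458), the replicate block (0.0212) and without knockout 1 (0.0161). It was not called without wild type 1 (0.109), wild type 2 (0.142) or knockout 2 (0.0557), nor with quantile normalization (0.0505), limma-voom (0.0833) or no filter (0.296); the cause was not tested. The log2 differences of Ltb, Ccl21a, Ccr7 and Il7r were above 0 in every setting in which they were fitted. With a pseudocount of 10 that of Ltb was 0.64, of Il7r 0.24 and of Ccr7 0.22. The filter at 5 FPKM removed Ccr7 and Il7r. Depth limits Lta, Cxcl13, Cxcr5 and Ccl19, which had 0 to 56 reads per library.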
